A study of Mus musculus with 3 samples.

Results

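Dcn-high fibroblasts were cells of an E15.5 mouse embryo that carried at least 5 counts of Dcn and at least 3 counts of Col1a2. A cell also had to hold under 2 counts over the endothelial genes Pecam1, Cdh5, Kdr, Emcn and Cldn5, no count of Stra6 and under 2 counts of Prrx1. The cells were chosen by the measured counts of these 9 genes, whose levels are therefore given only as a description. The gate found 4093 cells among the 195915 kept cells of the E15.5 section, or 2.09% (exact Clopper-Pearson interval 2.03% to 2.15%), and the 3 sections of the series held 203079 kept cells in all.

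The tissue was whole wild-type embryos, untreated: 1 sagittal section of 1 embryo at E15.5, and 2 sagittal sections of 2 different embryos at E9.5. RNA was counted by MERFISH, which images barcoded probes in place over rounds of fluorescence and assigns each decoded molecule to a segmented cell. The Vizgen MERSCOPE panel had 300 genes, of which 296 were read as MERFISH barcodes and 4 as sequential probes. Cells with at least 10 panel counts were kept. Since E15.5 had 1 section, no comparison below has a test: cells of a section are not replicates, and every interval covers counting error only.

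Fibroblasts make and remodel the collagen and elastic fibres of connective tissue. Decorin, the product of Dcn, is a small leucine-rich proteoglycan that binds collagen fibrils and growth factors, and Col1a2 encodes a chain of type I collagen. Dkk2 and Sfrp2, the other markers of the group, encode secreted modulators of Wnt signalling, and fibroblasts of different organs carry different developmental transcription factors that reflect where they arose.

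Of the kept E15.5 cells, 14514 held at least 5 counts of Dcn and 7628 of these also held at least 3 counts of Col1a2. The endothelial condition removed 2175 of them, the Stra6 condition removed 1130 and the Prrx1 condition removed 230. The same gate found 6 of 830 kept cells (0.723%, interval 0.266% to 1.57%) and 13 of 6334 kept cells (0.205%, interval 0.109% to 0.351%) in the 2 E9.5 sections, numbers too small to describe further. Over all kept cells Dcn made up 10615 CPM (counts per 1000000 panel counts) at E15.5, against 2348 and 1044 at E9.5. Imaging run and stage cannot be told apart in this comparison.

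Within the gate the Dcn count had a median of 9 and reached 93, and the Col1a2 count had a median of 5 and reached 82. At the edge of the gate, 629 cells held exactly 5 counts of Dcn and 809 cells met every other condition with 4. On a scale of CPM outside the 9 gate genes, Dkk2 stood at 4521 in the cells with 5 and at 3757 in the cells with 4, Sfrp2 at 7426 and 7978, and Col5a2 at 17470 and 17664. For Col1a2, 970 cells lay at exactly 3 counts and 1129 cells met the other conditions with 2. F13a1 stood at 4422 in the cells with 5 counts of Dcn and at 2025 in the cells with 4, and Myh11 at 2231 and 4476. Of these 5 genes, Sfrp2 and Col5a2 were closest on both sides of the Dcn limit, and F13a1 and Myh11 differed by about 2-fold in opposite directions.

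Dcn-high fibroblasts were larger and gave more counts than the other 191822 kept cells of the section. Their median was 177 panel counts, 58 genes and a volume of 787 units, against 82 counts, 36 genes and 636 units in the other cells. The gate asks for counts of Dcn and Col1a2, so the choice of cells favours deep ones. Outside the 9 gate genes the medians were 159 and 80 counts. Of the groups described below, Prrx1-positive counterparts had 231.5 panel counts and 940 units, and Stra6-positive counterparts 213 and 877. Col1a2 cells without Dcn had 140 and 690. The median elongation (anisotropy of the drawn border) was 1.41 against 1.36. DAPI, a DNA stain, had a median intensity per unit of volume of 395046 in Dcn-high fibroblasts and 533646 in the other cells. Blank codes, barcodes given to no gene, took 0.304% and 0.302% of counts.

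Because of this difference in depth, levels are given as CPM of panel counts outside the 9 gate genes, over 287 genes. A gene is called higher at a ratio of 2 or more and lower at 0.5 or less. On this scale the median gene had a ratio of 0.869, and 22 genes were higher (7.67% of 287) and 55 lower (19.2%), 77 in all (26.8%), in Dcn-high fibroblasts than in the other kept cells. The split rests on the scale: per cell it was 84 higher and 17 lower, and per unit of cell volume 53 and 28. Measured relative to the median gene of each scale, both alternatives gave 22 and 55 again.

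Of the gene lists, the matrix genes of fibroblasts held the most genes called higher. Dcn and Col1a2 are on this list, so the gate chose cells by matrix genes to begin with. Against Col1a2 cells without Dcn, described below, the median ratio of the list was 1.02. Outside the gate 11 genes of that list were in the panel, and 10 had a ratio above 1, 6 were higher and 1, Col15a1, was lower, with a median ratio of 2.20 against 0.869 over all genes. Lox, the enzyme that cross-links collagen and elastin, stood at 8782 CPM in Dcn-high fibroblasts and 2979 in the other cells, 2.95-fold (2.87 to 3.03). Fbln5, Eln and Ltbp4 encode fibulin 5, elastin and a latent TGF-beta binding protein, all parts of elastic fibres or their assembly. Their ratios were 2.52 (2.43 to 2.62), 2.41 (2.33 to 2.48) and 2.20 (2.10 to 2.30). Fbln2, another fibulin, had 10537 CPM in Dcn-high fibroblasts and 4462 in the other cells, and Htra1, a secreted serine protease, 3219 and 1395. Fibulins, elastin and the enzyme that cross-links it were thus all on the higher side. Fn1 (fibronectin, ratio 1.91) and Fstl1 (follistatin-like 1, ratio 1.99) lay just under the 2-fold line. Mgp, an inhibitor of calcification, was close to even at 1.04 (0.965 to 1.12).

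Both Wnt modulators that mark the group were higher. Neither took part in the gate, but both were named as markers with earlier results of these data known. Their ratios are therefore a description and no separate support. Dkk2 had 4795 CPM in Dcn-high fibroblasts and 1487 in the other cells, 3.22-fold (3.11 to 3.34), the highest ratio of the 287 genes. Sfrp2 had 8550 and 3241, 2.64-fold (2.57 to 2.71). The third panel gene of the Wnt list, Wnt4, a Wnt ligand, had a ratio of 0.673 on this scale and 1.14 per cell. At least 1 count of Sfrp2 was seen in 52.3% of Dcn-high fibroblasts and in 14.8% of the other cells, and of Dkk2 in 35.6% and 9.06%. After each cell was thinned to 50 counts, which left out 67 Dcn-high fibroblasts and 61447 other cells, the shares were 29.8% against 10.7% for Sfrp2 and 18.0% against 6.16% for Dkk2. Both genes were seen in 22.5% of Dcn-high fibroblasts, beside 18.6% for the product of the 2 shares, and neither in 34.5%. Most Dcn-high fibroblasts thus showed a count of at least 1 of these genes, and a minority showed both.

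Other leading genes were of several kinds. Cd248 (endosialin, a surface glycoprotein of fibroblasts and pericytes) had 5750 CPM in Dcn-high fibroblasts and 1943 in the other cells, 2.96-fold (2.87 to 3.06). Col5a2, a chain of the type V collagen that sets fibril width, had 17346 and 6200, 2.80-fold (2.75 to 2.85). Fibin, which encodes a secreted protein, had a ratio of 2.51, Htra3, a protease related to Htra1, of 2.49, and Kcne3, a potassium channel subunit, of 2.13. Apod, for apolipoprotein D, had a ratio of 2.49 (2.17 to 2.85) but only 0.0577 counts per Dcn-high fibroblast, below the 0.0928 of the highest blank code. It was the only one of the 22 higher genes below that level. The rest of the 22 were Foxf1, Cxcl12, Serpinf1, Nid2 and Pcdh18, with ratios of 2.01 to 2.09, and Dlk1, F13a1 and Mrc1, described below.

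Among the 5 imprinted genes outside the gate, Dlk1 was the only one called: it encodes a transmembrane relative of the Notch ligands and had 45725 CPM in Dcn-high fibroblasts and 21215 in the other cells, 2.16-fold (2.13 to 2.18). Cdkn1c, an inhibitor of the cell cycle, had a ratio of 1.45. H19, a non-coding RNA, had 0.974 and Gnas 0.893 on this scale, and both were above 1 per cell. Of the IGF list, Igfbp5 and Igfbp3, which bind insulin-like growth factors, had ratios of 1.56 and 1.18.

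None of the 12 proliferation genes was higher and 2 were lower, and all 12 had ratios under 1, with a median of 0.794 beside 0.869 over all genes. Per cell, 9 of the 12 had ratios above 1, a share like that of all genes, at 216 of 287. The median of the 12 per cell was 1.34, beside 1.47 over all genes. Top2a, a DNA topoisomerase of dividing cells, had 8554 CPM in Dcn-high fibroblasts and 9703 in the other cells. Of the 4 genes of cell cycle exit none was called, and their median ratio was 0.773. On both scales the lists of the cell cycle lay below the median gene.

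Genes of neural and blood cells gave the lowest ratios. All 4 neuronal genes were lower, also per cell and per volume: Tubb2b, a tubulin of neurons, had 942 CPM in Dcn-high fibroblasts and 14762 in the other cells, a ratio of 0.0638 (0.0591 to 0.0688). Stmn2, which regulates microtubules in neurons, had 2567 and 29850, Scn3a, a sodium channel, a ratio of 0.0830, and Reln, the secreted protein reelin, a ratio of 0.167. Within areas the ratio of Stmn2 was above 1 in 5 of the 12 areas described below, with 6.90, 4.45 and 2.65 as the highest, and that of Scn3a in 2. Of 3 glial genes 2 were lower, among them Fabp7 of radial glia at 0.0967. Both erythroid genes were lower, Car2 (carbonic anhydrase 2) at 0.0765 and Bpgm at 0.270. The epithelial gene Spint2 had a ratio of 0.283 and the cartilage gene Cytl1 a ratio of 0.395. Spock2, Rgs4, Cd200 and Ehd3 completed the 10 lowest named genes, at 0.117, 0.181, 0.224 and 0.225. Fabp7, Car2 and Ehd3 had 0.0491, 0.0911 and 0.0877 counts per Dcn-high fibroblast, below the 0.0928 of the highest blank code. Scn3a, at 0.023, also lay below the mean blank code of 0.031, so the size of its ratios is uncertain. Of the 5 genes of the liver sinusoid list, none was higher and 1 was lower. No gene of the skeletal muscle list was in the panel, so muscle could not be followed.

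**Figure D1:**
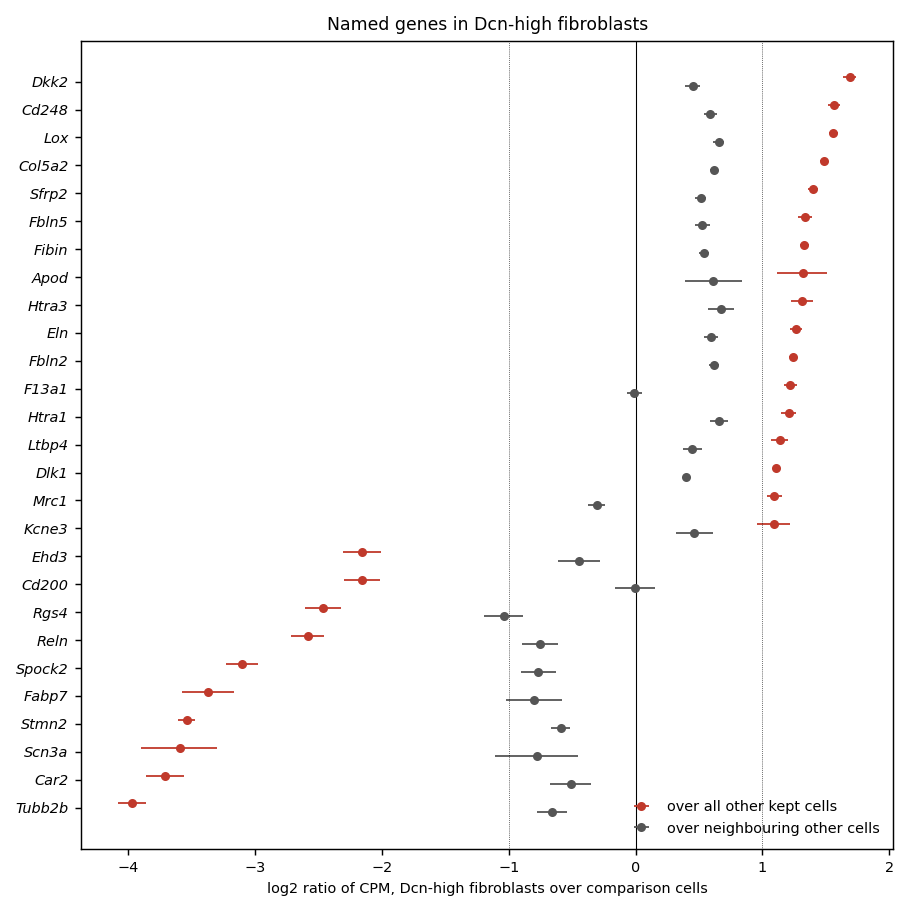
Log2 ratio of CPM outside the gate genes in Dcn-high fibroblasts over all other kept cells (red) and over the neighbouring other cells (grey), with counting intervals; dotted lines mark 2-fold. Every red point of the upper 17 genes lies beyond the 2-fold line on the right, and no grey point of any gene does.

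Markers of macrophages lay above the rest of the section but below the neighbouring cells. All 6 macrophage genes had ratios above 1 over the other kept cells, with a median of 1.35 beside 0.869 over all genes. Of the 6, 1 was higher, Mrc1, the mannose receptor, at 2.14 (2.05 to 2.23). The summed level of the 6 genes was 5735 CPM in Dcn-high fibroblasts, with a range of 3062 to 9510 over areas of the section, against 3452 in the other cells. Against the neighbouring other cells described below, none of the 6 had a ratio above 1. The median there was 0.821, and these neighbours had a summed level of 7142 CPM. C1qa, C1qb and C1qc, the complement genes that define macrophages here, were seen in 7.53%, 6.91% and 6.21% of Dcn-high fibroblasts. C1qa, Tyrobp and Fcer1g had 0.0899, 0.0699 and 0.0743 counts per Dcn-high fibroblast, below the 0.0928 of the highest blank code. F13a1, the A chain of coagulation factor XIII and a gene also made by tissue macrophages, had a ratio of 2.33 (2.24 to 2.42). Among the 2713 Dcn-high fibroblasts and 161183 other cells with no count of the 6 macrophage genes, that ratio was 1.21 (1.10 to 1.33). With Mrc1 left out of that sum, 3150 Dcn-high fibroblasts and 168454 other cells had no macrophage count, and the ratios were 1.48 (1.37 to 1.59) for F13a1 and 1.90 (1.74 to 2.07) for Mrc1. Where the remaining F13a1 counts came from was not tested.

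Mural genes, the markers of pericytes and smooth muscle, summed to 12435 CPM in Dcn-high fibroblasts and 12460 in the other cells. None of the 9 was higher and 2 were lower, but the sum ran from 4943 to 35572 over areas of the section. At least 3 counts of Myh11 and Acta2 together, a smooth muscle myosin and actin, were found in 248 Dcn-high fibroblasts (6.06%), against 3.40% of the other cells. These 248 cells were uneven in place, with 137 of them in 1 area of the section.

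Dcn-high fibroblasts lay together. Among the 10 nearest kept cells of each, 19.6% were Dcn-high fibroblasts themselves, against 2.09% of all kept cells, a ratio of 9.36, and 74.1% had at least 1 such neighbour. The median distance to the next Dcn-high fibroblast was 12.6 position units. Cells with neither Dcn nor Col1a2 made up 7.66% of the neighbours and 55.8% of the section. Cells with an endothelial sum of at least 2 made up 15.03% of the neighbours and 11.7% of the section, and cells with at least 3 macrophage counts 6.66% and 2.03%. The nearest cell with such an endothelial sum was a median of 15.6 units from a Dcn-high fibroblast and 21.2 units from another cell below that sum. For the groups described below, this median was 13.6 units for Stra6-positive counterparts, 17.1 for Col1a2 cells without Dcn and 19.4 for Prrx1-positive counterparts. Dcn-high fibroblasts thus had more of their own kind around them than the section average, and fewer cells without Dcn and Col1a2.

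The 22 higher genes were shared with the surroundings. Against the 19527 other cells that lay among the 10 nearest of a Dcn-high fibroblast, a comparison chosen after values were seen, no gene was 2-fold higher (0% of 287) and 10 were lower (3.48%). Of the 22 genes, 20 still had ratios above 1, beside 93 of all 287 genes. The median of the 22 was 1.40 beside 0.910 over all genes, and the highest value was 1.596 for Htra3 (1.49 to 1.71). The 22 had been chosen against all other kept cells, these neighbours included, so these ratios are no separate support. Lox was at 1.57, Col5a2 at 1.53, Cd248 at 1.504, Sfrp2 at 1.43 and Dkk2 at 1.37. F13a1 had 4177 CPM in Dcn-high fibroblasts and 4210 in these neighbours, and Mrc1 had 3262 and 4038, so both were no longer on the higher side. The neighbours were a mixed group: 25.4% held at least 5 counts of Dcn, 21.9% held none, and 18.7% had an endothelial sum of at least 2, which the gate had removed from Dcn-high fibroblasts.

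The 10 genes that were lower than in the neighbours included several of blood and lymph vessels. Aplnr, the apelin receptor, had a ratio of 0.270 (0.236 to 0.307), Gja5, an arterial connexin, 0.347, Epas1, a hypoxia-inducible factor, 0.360, and Prox1, the lymphatic transcription factor, 0.388. Notch4 and Ptprb, both of endothelium, had 0.462 and 0.479, and Col15a1, a basement membrane collagen, 0.377. Cdkn1a, Scn7a and Rgs4 had ratios of 0.485 to 0.487. The part of the 18.7% of neighbours with endothelial counts in these ratios was not tested. Aplnr, Gja5, Prox1, Notch4, Ptprb and Scn7a had at most 0.0877 counts per Dcn-high fibroblast, below the 0.0928 of the highest blank code. Ptprb and Scn7a, at 0.0225 and 0.0296, also lay below the mean blank code of 0.031.

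Against the 4271 neighbours with no Dcn count, 5 genes were higher (1.74%) and 25 were lower (8.71%). The higher genes were Cd248 at 2.69 (2.49 to 2.90), Cd55, which protects cells from complement, at 2.56 (2.08 to 3.17), Fbln2 at 2.42, Sfrp2 at 2.08 and Htra3 at 2.01 (1.77 to 2.29). Dkk2 was at 1.87 and Lox at 1.92. Over the other kept cells of the whole section Cd248, Sfrp2 and Htra3 had larger ratios than these, Fbln2 a similar one and Cd55 a smaller one, at 1.94.

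To follow place, the section was divided into squares of 1000 position units, and the 12 squares with at least 100 Dcn-high fibroblasts were numbered by how many they held. They contained 3212 of the 4093 cells (78.5%). Area 1 held 683, or 16.7% of the group and 11.95% of the kept cells there, and area 12 held 113. Areas 2, 3, 4, 5, 8 and 12 lay between 4000 and 6000 on the y axis, and areas 1, 6, 7, 9, 10 and 11 between 0 and 3000. Dcn itself had a median of 13 in area 1, 11 in areas 6 and 11, and 7 to 9 elsewhere. All areas are places in 1 embryo and not replicates.

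**Figure D2:**
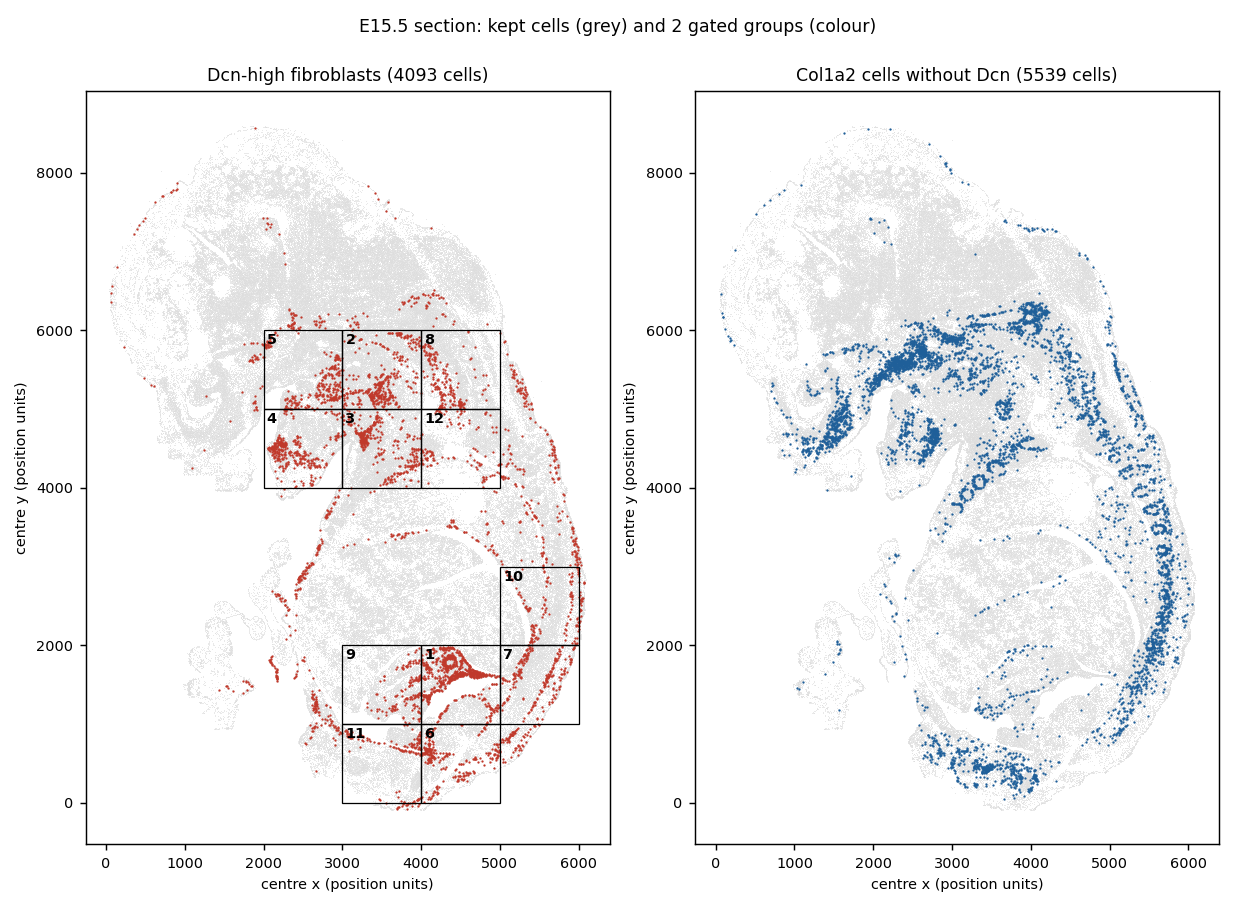
Centres of kept cells of the E15.5 section (grey), with Dcn-high fibroblasts in red on the left and Col1a2 cells without Dcn in blue on the right; axes are position units of the deposited table and numbered squares are the 12 areas. Dcn-high fibroblasts form patches, with 683 cells in area 1, 390 in area 2 and 261 in area 5, against 28, 401 and 912 Col1a2 cells without Dcn in these areas.

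The comparison was repeated within areas. Of all 287 genes, 19 were above the other cells of the same area in 12 of 12 areas, among them Lox, Sfrp2, Cd248, Col5a2, Eln, Fbln5, Fibin, Htra3, Fn1 and Fstl1, and 35 were above them in none. The 22 higher genes had been chosen on these same cells. Of them, 13 were above the other cells in every area and 20 in at least 9. Of all 287 genes, 56 were above the other cells in at least 9 areas. Foxf1 was above them in 4 areas and Dlk1 in 8. Ltbp4 was below them in areas 4, 5 and 8, with ratios of 0.597, 0.913 and 0.914, Fbln2 in area 5, at 0.808, and Htra1 in area 12, at 0.683. Of the genes that were lower over the section, Tubb2b was above the other cells in none of the 12 areas, Stmn2 in areas 1, 6, 7, 10 and 11 and Rgs4 in areas 6, 7, 9 and 11.

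**Figure D3:**
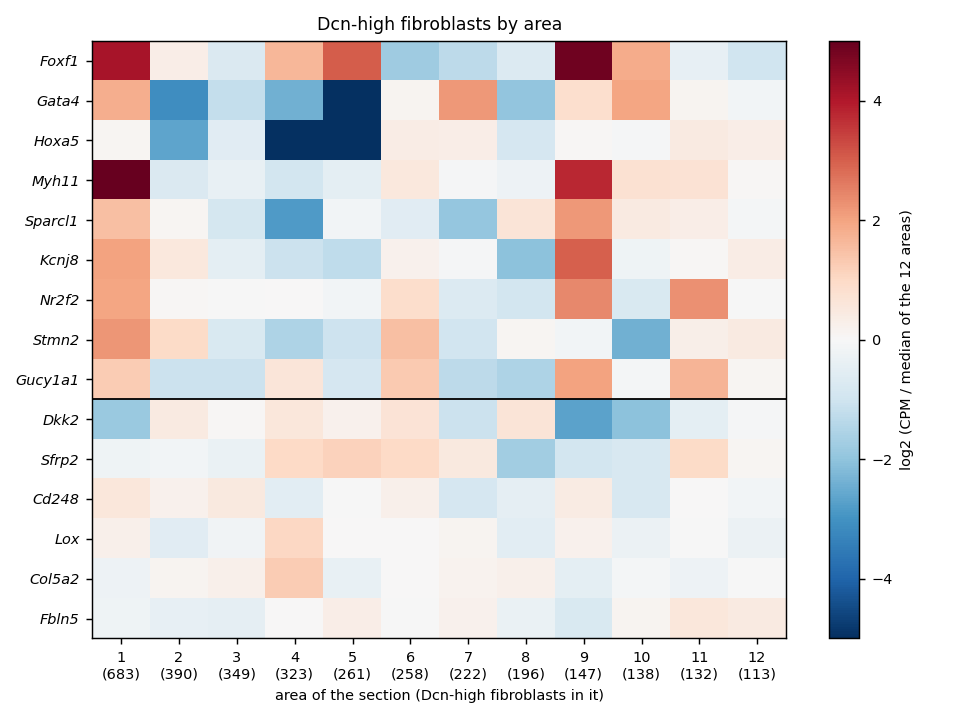
Level of 15 genes in the Dcn-high fibroblasts of each area, as log2 of CPM outside the gate genes over the median of the 12 areas; numbers in brackets are Dcn-high fibroblasts per area. The 9 genes above the line are among those that vary most with place, with Foxf1 and Myh11 high in areas 1 and 9 and Hoxa5 low in areas 4 and 5. Below it, Cd248, Lox, Col5a2 and Fbln5 stay nearer to the median. Dkk2 and Sfrp2, also below it, vary more, with Dkk2 from 819 CPM in area 9 to 8369 in area 6.

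Developmental transcription factors varied most with place among Dcn-high fibroblasts. Of 113 genes with at least 0.2 counts per cell, 31 differed at least 3-fold between the 10th and the 90th percentile of the areas. Foxf1, a factor of gut and lung mesenchyme, led with a ratio of 39.9: it had 12870 CPM in area 9, 7735 in area 1 and 3578 in area 5, and 130 in area 6. In areas 1 and 9 the other cells had 3242 and 5733, so Dcn-high fibroblasts were above them by 2.39-fold and 2.24-fold there. Gata4, a factor of heart and foregut mesoderm, ranged from 16.1 CPM in area 5 to 3854 in area 7, where the other cells had 1027. In area 10 Gata4 was 3416 in Dcn-high fibroblasts and 611 in the other cells. The mean blank code gave 0.031 counts per Dcn-high fibroblast over the whole group. The Foxf1 level of area 6 and the Gata4 levels of areas 2, 4 and 5 lay below that, so the size of these ranges is uncertain.

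Hoxa5, a homeobox gene of the trunk, divided the areas in another way. It had 81.8 and 80.6 CPM in areas 4 and 5 and 453 in area 2, and between 1580 and 3882 in each of the other 9 areas. The other cells of areas 4 and 5 had 193 and 122. Low Hoxa5 in Dcn-high fibroblasts thus went with low Hoxa5 in the cells around them. The Hoxa5 levels of Dcn-high fibroblasts in areas 4 and 5 lay below that of the mean blank code over the whole group.

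Area 4 held the highest levels of several matrix genes. Col5a2 reached 38048 CPM there, against a range of 11402 to 19092 in the other 11 areas, and Lox 16917, against 5535 to 9841. Fibin reached 24117 there, against 3311 to 15075 elsewhere, and Dlk1 was lowest, at 11005, against 30914 to 67675. Tbx20, a T-box factor, and Unc5b, a netrin receptor, also peaked in area 4, at 3580 and 4500, against highest values of 777 and 784 in the other areas. The other cells of area 4 were also the highest of the 12 areas for Col5a2, at 19160 CPM against at most 9486, and for Lox, at 10692 against at most 4746. Area 7 was set apart by the proteases, with 11383 CPM of Htra1 and 3645 of Htra3, the highest of the 12 areas for both.

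The Wnt modulators also varied with place. Sfrp2 was highest in area 5, at 15602 CPM, and lowest in area 8, at 2107. Dkk2 was at 6125 in area 5 and 8235 in area 8, and lowest in area 9, at 819. Areas 4 and 6 were high for both genes, with 14094 and 14070 of Sfrp2 and 7855 and 8369 of Dkk2. Areas 1, 9 and 10 were low for both, with 6073, 3687 and 4078 of Sfrp2 and 1473, 819 and 1286 of Dkk2. Dkk2 was above the other cells of the same area in 11 of 12 areas and Sfrp2 in all 12.

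Areas 1 and 9 carried smooth muscle genes. Myh11 in Dcn-high fibroblasts was 17537 CPM in area 1 and 5940 in area 9, and between 225 and 735 in the other 10 areas. The other cells of areas 1 and 9 had still more, 24791 and 12024. Kcnj8, a potassium channel subunit of mural cells, was 4679 in area 1 and 9149 in area 9, Sparcl1, a secreted matrix glycoprotein, 15811 and 24648, and Nr2f2, a nuclear receptor, 2668 and 3619. Gucy1a1, a subunit of guanylate cyclase, was highest in area 9, at 9627, with 7765 in area 11. Stmn2 was highest in area 1, at 7141. Whether counts from adjoining smooth muscle lay inside the drawn borders was not tested. In the 3030 Dcn-high fibroblasts with no Myh11 or Acta2 count, Eln and Fbln5 had ratios of 2.74 and 2.67 over other cells without them. Ltbp4 had 1.95 and Foxf1 1.47 there, both under 2-fold.

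Of the 14 patterning factors outside the gate, Foxf1 alone was higher over the whole section and none was lower, with a median ratio of 1.12. Among cells with no Myh11 or Acta2 count Foxf1 was at 1.47 (1.36 to 1.58) and no longer 2-fold higher. Klf4, a zinc-finger factor, had a ratio of 1.81 and Meis2, a homeobox cofactor, 0.676 on this scale and 1.14 per cell. Their summed level ranged from 18854 to 58514 CPM over the areas, with the highest sum in area 9.

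Levels within the group also changed with the number of Dcn counts. Cells were put in 5 classes: 1186 with 5 to 6 counts, 1187 with 7 to 9, 870 with 10 to 14, 610 with 15 to 24 and 240 with 25 or more. Median counts outside the gate were 145, 153, 155.5, 175.5 and 211.5 in these classes. Of the 113 genes followed, 12 were higher at each step and 9 lower at each step. From the lowest class to the highest, Cd248 stood at 4527, 5189, 5595, 7151 and 9481 CPM. Cdkn1a, the p21 inhibitor of the cell cycle, stood at 3326, 2479, 2296, 1343 and 575. Dkk2 stood at 4453, 5150, 5224, 5096 and 2855 CPM and Sfrp2 at 7816, 8699, 8750, 9162 and 8673. Fbln2, Fbln5, Htra3 and Meis2 were also higher at each step, and Heyl, a Notch target, H19 and Notch1 lower.

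The relation to Dcn depended on place for some genes. Because area 1 had the highest Dcn, cells with 15 or more counts were set against cells with 5 to 9 counts inside area 1 (314 and 219 cells) and outside it (536 and 2154 cells), a comparison added after values were seen. Foxf1 was 2.19-fold higher with more Dcn over the whole group, 1.56-fold (1.34 to 1.82) in area 1 and 1.04-fold (0.882 to 1.22) outside it, and with area 9 also left out it was lower, at 0.393 (0.290 to 0.521). Cd248 was higher in each, at 1.62, 1.80 and 1.43, and so was Klf4, at 1.78, 3.05 and 1.32. Cdkn1a was lower over the whole group at 0.379 and outside area 1 at 0.452, but in area 1 it had 35 and 14 counts and a ratio of 1.46 (0.766 to 2.94). Cd248 and Klf4 were thus higher with more Dcn inside and outside area 1, and Foxf1 was not outside it.

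**Figure D4:**
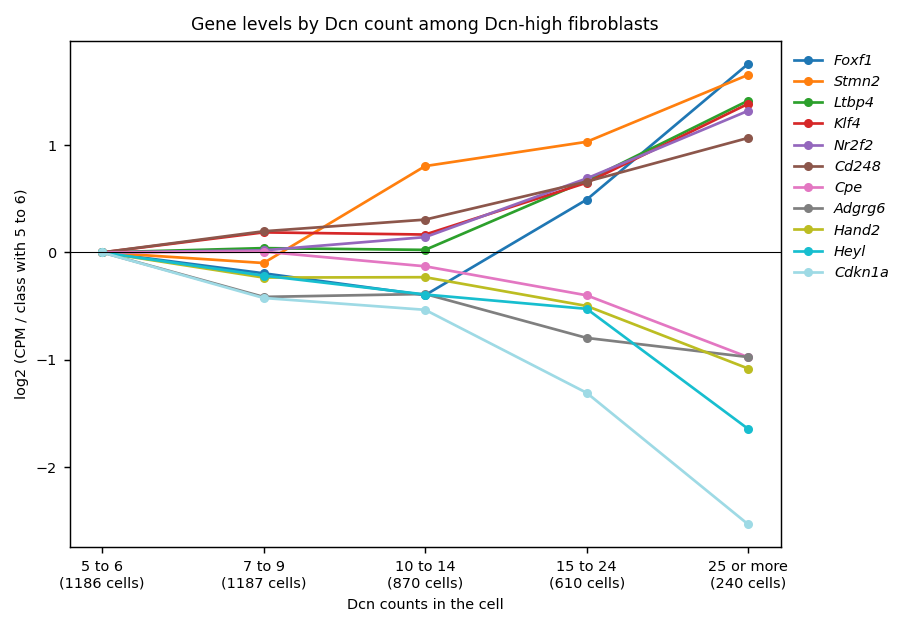
Level of 11 genes in Dcn-high fibroblasts by the cell's Dcn count, as log2 of CPM over the class with 5 to 6 counts; classes run from low to high Dcn. Foxf1 is highest and Cdkn1a lowest in the class with 25 or more counts, and Cd248 is higher at each step.

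Dcn-high fibroblasts were then set beside the cells that single conditions of the gate had kept out. The Stra6-positive counterparts, 1099 cells with at least 1 count of the vitamin A receptor gene Stra6 and all other conditions met, differed in the fewest genes of the 3 groups compared. Here 5 genes were higher (1.74% of 287) and 3 lower (1.05%) in Dcn-high fibroblasts, 8 in all (2.79%), and the median ratio was 1.05. Vtn (vitronectin, an adhesion protein) had 334 CPM in Dcn-high fibroblasts and 3017 in the Stra6-positive cells, a ratio of 0.111 (0.0953 to 0.129). Pltp, a phospholipid transfer protein, had 843 and 3144. Gata5 and Tbx20 were higher in Dcn-high fibroblasts at 2.37 and 2.12, Unc5b at 2.08, and Crabp1, a retinoic acid binding protein, at 2.00 (1.83 to 2.19). Nkx2-3 and Nr2f2, at 0.532 and 0.622, and Fibin, at 1.80, were next in order and inside the 2-fold lines. Of the 11 matrix genes none was called, and 10 had ratios above 1.

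The Prrx1-positive counterparts were 230 cells with at least 2 counts of Prrx1, a homeobox gene of limb and craniofacial mesenchyme. Here 42 genes were higher (14.6%) and 12 lower (4.18%) in Dcn-high fibroblasts, and per cell the split was 23 and 34. Sfrp2 had 8550 CPM in Dcn-high fibroblasts and 27815 in the Prrx1-positive cells, a ratio of 0.307 (0.290 to 0.326), and Dkk2 had 4795 and 8732. Prrx2, the related homeobox gene, was also lower, at 0.327, as were Foxf1 at 0.281, Car2 at 0.245 and Clec14a, an endothelial lectin gene, at 0.295. The markers Sfrp2 and Dkk2 were thus not highest in Dcn-high fibroblasts among the cells that met the Dcn and Col1a2 conditions.

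On the other side, Myh11 was 20.8-fold higher in Dcn-high fibroblasts on 9 counts in the Prrx1-positive cells (10.9 to 45.5), Acta2 5.49-fold and Pdlim3, a muscle LIM protein gene, 4.50-fold. Gja5 and Vtn had ratios of 12.8 (3.53 to 106) and 5.72 (1.93 to 27.9), on 2 and 3 counts in the Prrx1-positive cells. These groups differed in place: 83 of the Prrx1-positive cells lay in area 5, 43 in area 4 and 2 in area 1. The part of place in these ratios was not tested.

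**Figure D5:**
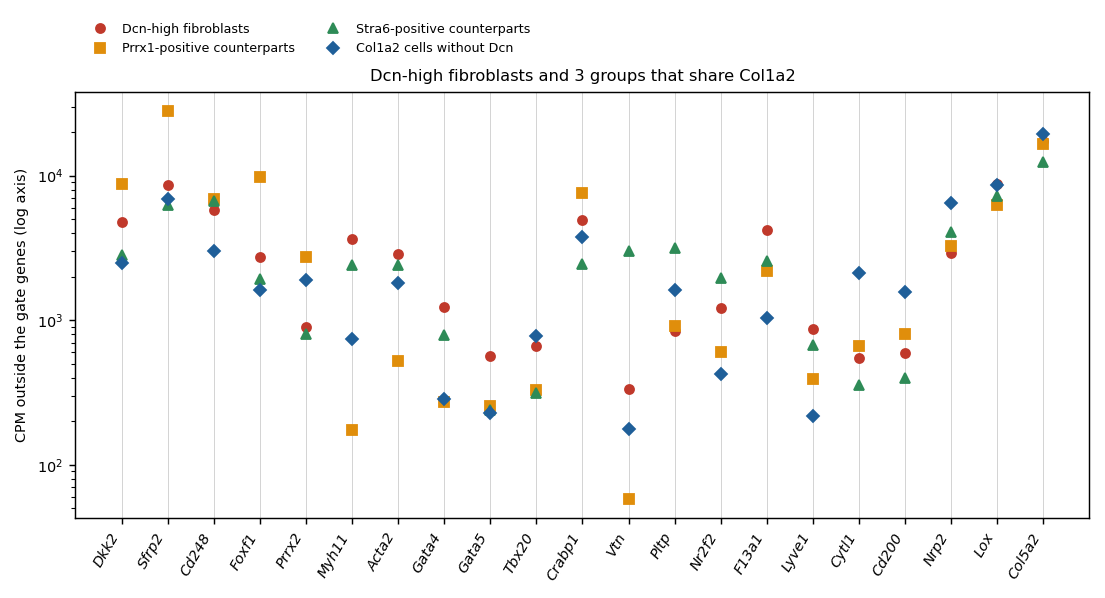
CPM outside the gate genes (log axis) for 21 genes in Dcn-high fibroblasts, Prrx1-positive counterparts, Stra6-positive counterparts and Col1a2 cells without Dcn. Sfrp2 stands highest in the Prrx1-positive cells at 27815, Vtn in the Stra6-positive cells at 3017, and Lox and Col5a2 are close between Dcn-high fibroblasts and cells without Dcn.

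Col1a2 cells without Dcn were 5539 cells with at least 3 counts of Col1a2, no Dcn and the other conditions met. Against them 22 genes were higher (7.67%) and 10 lower (3.48%) in Dcn-high fibroblasts, and per cell the split was 29 and 2. Matrix genes did not separate these groups: none of 11 was called, and their median ratio was 1.02, beside 1.05 over all genes. Lox had 8782 CPM in Dcn-high fibroblasts and 8654 in the cells without Dcn, Eln 5751 and 5664, and Col5a2 17346 and 19335. Bgn, for biglycan, a proteoglycan related to decorin, had 5867 and 8070, a ratio of 0.727 (0.699 to 0.756). The Lox, Eln and Col5a2 levels that set Dcn-high fibroblasts apart from the section were therefore those of Col1a2 cells without Dcn as well.

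Of the gene lists, the patterning factors held the most called genes, with 5 of 14 higher and 1 lower in Dcn-high fibroblasts. Also higher were 4 of 9 mural genes, 1 of 4 neuronal genes and 1 of 6 macrophage genes. The Wnt list had 1 of 3 higher and the liver sinusoid list 1 of 5. Apart from the patterning factors, none of these lists had a lower gene. Myh11 was at 3646 CPM in Dcn-high fibroblasts and 742 in the cells without Dcn, 4.91-fold (4.50 to 5.37), Gata4 4.29-fold and Tmem108 3.15-fold. By area, Myh11 in Dcn-high fibroblasts was 17537 CPM in area 1 and 5940 in area 9, and 225 to 735 in the others. Area 1 held 683 Dcn-high fibroblasts and 28 cells without Dcn. The part of place in these ratios was not tested. F13a1 was 4.05-fold (3.76 to 4.38) and Lyve1, the hyaluronan receptor of lymphatic vessels and some macrophages, 3.98-fold higher, while the 6 macrophage genes summed to 5735 and 2899 CPM. Cytl1, a cytokine-like gene of cartilage, was lower, with 548 CPM in Dcn-high fibroblasts and 2128 in the cells without Dcn, a ratio of 0.257 (0.230 to 0.287). Cd200, Mecom, Nrp2 and Gadd45g were at 0.378, 0.442, 0.449 and 0.462, of which Nrp2 encodes a receptor for semaphorins and VEGF. Cd248 was 1.90-fold and Dkk2 1.94-fold higher in Dcn-high fibroblasts, while Sfrp2 was 1.23-fold.

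The groups differed in how often they lay beside Dcn-high fibroblasts. Stra6-positive counterparts made up 3.49% of the 10 nearest cells and 0.561% of the section, a ratio of 6.22, and Prrx1-positive counterparts 0.845% and 0.117%, a ratio of 7.20. Col1a2 cells without Dcn made up 1.495% and 2.83%, a ratio of 0.529. Area 1 held 158 of the Stra6-positive cells and 28 of the cells without Dcn.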

How the data were processed

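The deposited tables hold whole-number counts per segmented cell for 296 genes and 19 blank codes, and per the file headers a second table gives each cell's centre, volume, anisotropy and summed DAPI and PolyT intensity. The unit of positions and volumes, and the settings for segmentation and decoding, were not given in the sources used here. Scanpy and Seurat appear in the submitters' processing notes without a stated version or purpose. No cell identifier was shared between sections (0). Members, lists and comparisons were chosen with earlier results of these data known.

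Counts were summed over the cells of a group and divided by the group's total outside the 9 gate genes, as CPM. Ratios carry exact conditional 95% intervals of 2 Poisson counts, and shares carry exact Clopper-Pearson intervals. The ratio code was tested on simulated data with 200 of 287 genes changed: 95.5% of true ratios lay within their interval, and 99% of higher and 100% of lower genes were recovered. Doublets were not called; cells over 3 times the median volume, and cells with a centre within 8 units, were left out as alternatives. Other alternatives changed the cell minimum, the gate, the scale, the blank level, the neighbours and the area size.

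Named genes were the markers, the 15 highest and 10 lowest ratios over other kept cells at 0.05 or more counts per cell, the 10 genes most variable over areas at 0.2 or more counts per cell, the 5 highest and 5 lowest against each of the 3 gated groups, and list members as examples. Some named genes are not reported here. Genes of the Dcn classes, of area 4 and of the comparisons with neighbours, and the other genes called there, were chosen after their values were seen. Python 3.11.15, numpy 2.4.6, pandas 2.3.3, scipy 1.17.1 and matplotlib 3.10.9 were used.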

Additional observations from a re-analysis of the deposited data

How the results depend on the processing

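With 1 section and no test, the alternatives show only how values move, and the cause of each move was not tested unless named. The share of Dcn-high fibroblasts was 2.28% at a minimum of 20 counts, 1.86% with no minimum, 3.06% at Dcn 3 or more, 1.25% at Dcn 8 or more, 2.67% at Col1a2 2 or more, 1.22% at Col1a2 5 or more and 2.78% without the Prrx1 and Stra6 conditions. Genes 2-fold higher and lower were 84 and 17 per cell, 53 and 28 per volume and 35 and 84 with the mean blank code subtracted; these scalings moved the median log2 ratio by 0.76, 0.48 and -0.15, and totals with all panel genes by -0.10. The totals with all panel genes gave 15 higher genes, all among the 22, and 58 lower genes. Against neighbouring cells, an alternative added after seeing the data, 0 genes were higher and 10 lower. F13a1 and Mrc1 turned to ratios of 0.992 and 0.808 there. Leaving out each area in turn, also added later, gave 18 to 24 higher and 53 to 59 lower genes. Against Stra6-positive counterparts, 8 genes differed 2-fold, and 5 did so per cell and 5 per volume. The share of Dcn-high neighbours was 21.3% for 5 and 18.0% for 20 nearest cells, and 18.3% without close centres. Genes varying 3-fold over areas were 50 with areas of 500 units and 13 with 2000 units, against 31. The other alternatives for these shares and counts of genes, including cells with no macrophage count and cells with no Myh11 or Acta2 count, stayed within the interval or within 1.5 times the count. Single genes moved under these 2 alternatives: Dkk2 was at 3.61 and 3.70, Cd248 at 3.10 and 3.20, F13a1 at 1.21 and 2.66 and Ltbp4 at 2.33 and 1.95. No paired analysis was possible because E15.5 had 1 section and no result comes from a test. Depth limits low genes: 103 of 287 genes lay at or below the highest blank code in Dcn-high fibroblasts, 27 of them among the 55 lower genes.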
